A study of Mus musculus with 30 samples.

Results

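The genes described here are the adult hemoglobin genes Hba-a1, Hba-a2, Hbb-bs and Hbb-bt and the erythroid heme synthesis gene Alas2, read by symbol from bulk RNA sequencing of mouse hippocampus. They are 5 of the 49315 genes in the count table, and 4 of them, all but Alas2, passed the filter on low counts that kept 16486 genes for testing. The study compared 13 TIMP2 knockout mice (TIMP2 KO, 7 females and 6 males) with 17 WT littermates (7 females and 10 males), all on the C57BL/6J strain. TIMP2, tissue inhibitor of metalloproteinases 2, is a secreted protein that blocks matrix-degrading enzymes. The study describes a second role, in activating the latent form of the matrix-degrading enzyme MMP2. The KO line came from the Jackson Laboratory. The exact age of these mice and whether they were perfused before dissection are not given in the sources used here. Each library came from the hippocampus of 1 mouse, so n counts mice.

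Hemoglobin is a tetramer of a pair of alpha-globin chains and a pair of beta-globin chains, each carrying heme, and it binds oxygen in red blood cells. Mammalian red cells lose their nucleus as they mature, and young ones still carry globin mRNA made earlier in the bone marrow. Alas2 encodes the erythroid form of 5-aminolevulinate synthase, the enzyme that starts heme synthesis, while its relative Alas1 does so in other tissues. Dissected brain usually holds some blood in its vessels, and globin transcripts have also been described in neurons, so a bulk library cannot tell apart fewer cells of a type and less RNA per cell.

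Hba-a1 (ENSMUSG00000069919) and Hba-a2 (ENSMUSG00000069917), the alpha-globin copies, lie on the plus strand of chromosome 11 in GRCm38, at chr11:32283511-32284465 and chr11:32296489-32297298. Hbb-bs (ENSMUSG00000052305) and Hbb-bt (ENSMUSG00000073940), the adult beta-globin copies, lie on the minus strand of chromosome 7, at chr7:103826534-103828096 and chr7:103812524-103813996. Alas2 (ENSMUSG00000025270) lies on the plus strand at chrX:150547375-150570638. The members of each globin pair are close copies, which decides how far their counts can be kept apart. Over 426 coding bases Hba-a1 and Hba-a2 differed at 1, and over 441 coding bases Hbb-bs and Hbb-bt also differed at 1. The stretches that hold these differences, all in exon 3 of 3, are shown 5′ to 3′ as coding bases 322 to 381 of the alpha pair and 358 to 417 of the beta pair, with the differing base in capitals. Their positions are chr11:32284284-32284343, chr11:32297101-32297160, chr7:103826692-103826751 and chr7:103812683-103812742, in the order printed.
Hba-a1: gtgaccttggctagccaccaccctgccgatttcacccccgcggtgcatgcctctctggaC
Hba-a2: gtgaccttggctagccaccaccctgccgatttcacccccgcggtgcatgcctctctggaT
Hbb-bs: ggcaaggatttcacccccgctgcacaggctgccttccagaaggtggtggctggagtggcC
Hbb-bt: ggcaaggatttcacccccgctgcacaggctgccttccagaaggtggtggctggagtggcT
Of all windows of 150 bases in the Hba-a1 transcript, 48.4% occurred letter for letter in Hba-a2, and 58.7% of those in Hbb-bs occurred in Hbb-bt. How reads that match both copies were counted is not given in the sources used here, so the split within a pair is uncertain and the sum of a pair is the firmer value. No window was shared between Hba-a1 and Hbb-bs.

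The sequences just upstream of the starts show what the 4 globin genes share beyond their names and what Alas2 does not. The 100 bases before the RefSeq start (GRCm38.p6) were searched on both strands for the CACCC box, the CCAAT box, the TATA box (searched as TATAA) and the GATA motif (searched as GATAA), known from globin and erythroid promoters, and matches are in capitals. The windows lie at chr11:32283572-32283671 (plus strand), chr7:103827929-103828028 (minus), chr7:103813924-103814023 (minus) and chrX:150547317-150547416 (plus). GENCODE M21 places the starts of these genes further upstream than RefSeq. The Hba-a1 and Hbb-bs windows thus lie wholly inside the GENCODE genes, and those of Hbb-bt and Alas2 in part.
Hba-a1: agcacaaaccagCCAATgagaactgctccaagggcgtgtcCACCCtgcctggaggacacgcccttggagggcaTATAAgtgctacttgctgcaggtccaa
Hbb-bs: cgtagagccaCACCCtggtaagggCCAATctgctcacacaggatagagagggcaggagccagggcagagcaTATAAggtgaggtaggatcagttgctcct
Hbb-bt: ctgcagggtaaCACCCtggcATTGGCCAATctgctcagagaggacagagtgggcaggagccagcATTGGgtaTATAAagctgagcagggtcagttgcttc
Alas2: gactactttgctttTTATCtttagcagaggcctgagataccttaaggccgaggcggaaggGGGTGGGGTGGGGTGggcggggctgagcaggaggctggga
Hba-a2 had the same letters as Hba-a1 once shifted by a few bases, and Hbb-bs and Hbb-bt were 73.7% identical. All 4 globin windows held the CACCC box, the CCAAT box and the TATA box together, as did 0.472% of 32851 RefSeq promoter windows of the same length. Singly, the CACCC box was in 27.2% of them, the CCAAT box in 18.9%, the TATA box in 10.2% and the GATA motif in 8.55%. The Alas2 window held the CACCC box 3 times and the GATA motif once, each on the opposite strand, where they read GGGTG and TTATC, and neither the CCAAT box nor the TATA box. These matches describe letters in a window, not bound sites.

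Libraries held 18345517 to 41081083 counts in TIMP2 KO mice (median 28180319) and 19445246 to 32098386 in WT mice (median 27786898). Timp2, the targeted gene, was at 130 to 171 CPM (the counts-per-million scale) in the 13 KO mice and at 256 to 380 in the 17 WT mice, so the groups did not overlap, and transcript was still counted in the KO mice (log2 fold change −0.999, SE 0.0528; edgeR adjusted p = 7.6e-16). Which part of Timp2 the KO allele removes is not given in the sources used here. Timp2 is also on chromosome 11, 86.0 Mb from Hba-a1. Marker genes of hippocampal neurons (Rbfox3, Slc17a7, Neurod6, Prox1 and Fibcd1) summed to 2372 to 2728 CPM in KO and 2241 to 2715 CPM in WT mice.

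Hemoglobin transcripts were present in every library but were rare, and their level varied widely from mouse to mouse. The 4 globin genes together took between 23 and 1594 counts per library (median 115), or 1.07 to 50.2 CPM by the library total (median 4.74). The highest was mouse 3, a TIMP2 KO female, at 50.2 CPM (95% Wilson interval 47.8 to 52.7, counting error only), and the lowest was mouse 21, a WT female, at 1.07. That is a 47.1-fold range. The next highest were mouse 28 (WT female, 40.3), mouse 16 (WT female, 27.7), mouse 29 (WT male, 19.9) and mouse 8 (TIMP2 KO female, 18.8). Both genotypes and both sexes were thus among the 5 highest mice, which held 60.2% of all globin counts, and mouse 3 alone held 22.8%.

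**Figure D1:**
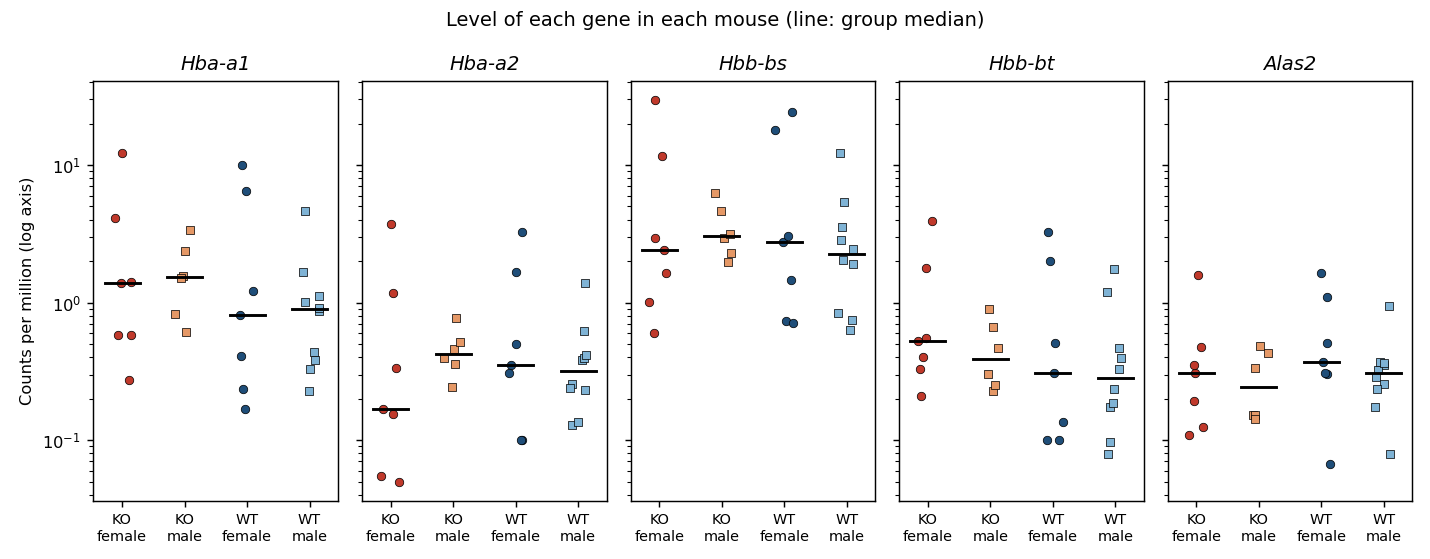
Each point is 1 mouse, with the level in CPM on a log axis, for the 4 sex and genotype groups (7 KO females, 6 KO males, 7 WT females and 10 WT males), and the line is the group median. The groups overlap for all 5 genes, and the highest mice are a few KO females, WT females and 1 WT male.

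Hbb-bs, the more abundant beta-globin gene, ranged from 0.60 to 29.7 CPM in TIMP2 KO mice (median 2.93) and from 0.63 to 24.4 CPM in WT mice (median 2.45). In counts, that is 11 to 954 in KO and 18 to 475 in WT libraries. Hbb-bt, the second beta-globin gene, ranged from 0.21 to 3.92 CPM in KO mice (median 0.47) and from 0.080 to 3.24 CPM in WT mice (median 0.31). For both genes the ranges overlapped almost fully, and mouse 3 among the KO mice and mouse 28 among the WT mice were the highest.

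Hba-a1, the more abundant alpha-globin gene, ranged from 0.27 to 12.3 CPM in TIMP2 KO mice (median 1.42) and from 0.17 to 9.98 CPM in WT mice (median 0.88). Hba-a2, the second alpha-globin gene, ranged from 0.050 to 3.70 CPM in KO mice (median 0.36) and from 0.10 to 3.24 CPM in WT mice (median 0.35). These ranges overlapped as well. The lowest Hba-a2 values rest on 1 to 3 counts in a library, so single low values are imprecise.

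Alas2 ranged from 0.11 to 1.59 CPM in TIMP2 KO mice (median 0.31) and from 0.067 to 1.65 CPM in WT mice (median 0.32), on 2 to 51 counts per library. It fell below the filter on low counts, and its fits were made by keeping it in the table beside the genes that passed. The whole gene lies opposite Apex2, a DNA repair gene on the other strand, and 12.9% of its exonic bases (311 of 2403) are also exonic in Apex2. The strand setting of the counting is not given in the sources used here, so reads from both genes cannot be told apart over those bases. Apex2 itself was at 2.34 to 5.27 CPM, and its log2 CPM had a Pearson r of −0.24 with that of Alas2 over 30 mice, given as a description.

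Per length (RPKM, CPM divided by the exonic length in kilobases), the order of the 5 genes was nearly the same in every mouse. Hbb-bs was highest in 30 of 30 mice (median 3.39 RPKM), and Hba-a1 was next in 27 of 30 (median 1.18). Hba-a2 and Hbb-bt had medians of 0.54 and 0.51 RPKM and did not keep an order, with Hbb-bt above Hba-a2 in 17 mice and below it in 13. Alas2 was the lowest in 29 of 30 mice (median 0.13). The alpha to beta ratio, the summed RPKM of the alpha pair over that of the beta pair, had a median of 0.43 and a range of 0.27 to 0.98.

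The question put to the genotypes was whether loss of TIMP2 went with more or less hemoglobin transcript in hippocampus. None of the 4 tested members passed between TIMP2 KO and WT mice by edgeR's quasi-likelihood test, at an unadjusted p under 0.05 (0 of 4, against 5.03% of all genes tested) or adjusted over all genes (0 of 4, against 0.0546%). For Hbb-bs the log2 fold change was 0.23 (SE 0.52, 95% interval −0.82 to 1.28; adjusted p = 0.998), an interval that runs from a 0.56-fold to a 2.43-fold level. Hba-a1 had 0.49 (SE 0.52, interval −0.56 to 1.54) and Hba-a2 0.20 (SE 0.50, interval −0.81 to 1.21). Hbb-bt had 0.39 (SE 0.49, interval −0.61 to 1.395), and Alas2 had −0.18 (SE 0.38, interval −0.96 to 0.60). The unadjusted p-values were between 0.352 (Hba-a1) and 0.688 (Hba-a2).

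Summing the copies removes the doubt on how counted reads were split, but not on reads matching both copies that may have gone uncounted. It gave a log2 fold change of 0.41 (SE 0.51, unadjusted p = 0.426) for the alpha pair and 0.24 (SE 0.51, unadjusted p = 0.642) for the beta pair. The sign of the genotype difference rested on single mice. Without mouse 3, Hbb-bs was at −0.47, Hba-a1 at −0.15, Hba-a2 at −0.56 and Hbb-bt at −0.20, and without mouse 28 they were at 0.59, 0.90, 0.57 and 0.72. The tests missed the threshold in all of these fits, which does not show that the genotypes were alike.

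**Figure D2:**
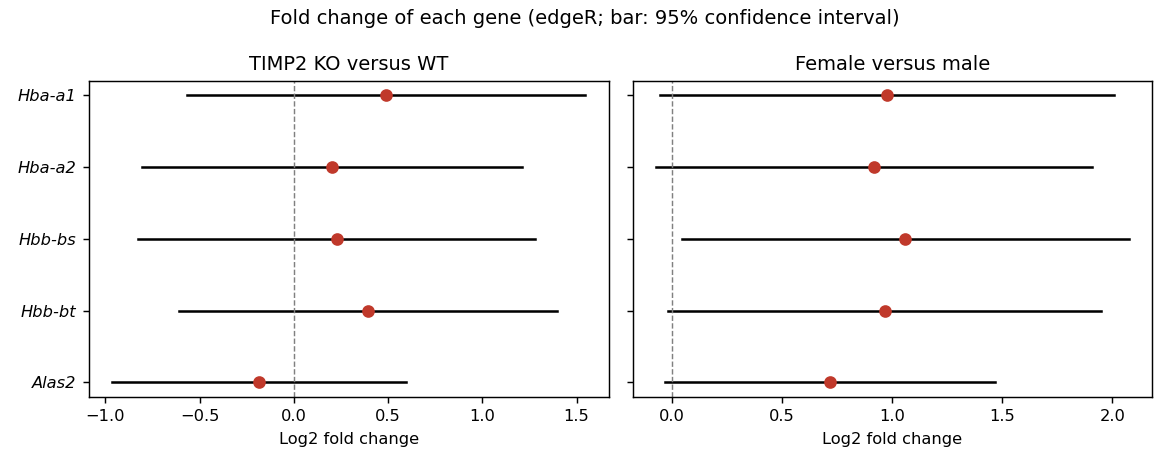
The log2 fold change of each gene by edgeR's quasi-likelihood test is drawn as a point with its 95% confidence interval as a bar, for 13 TIMP2 KO against 17 WT mice on the left and 14 female against 16 male mice on the right. The intervals span 0 for all 5 genes on the left and for 4 of 5 on the right, where that of Hbb-bs starts at 0.04.

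All 5 genes had higher fitted levels in females than in males, and no difference passed adjustment. Hbb-bs ranged from 0.60 to 29.7 CPM in the 14 females (median 2.58) and from 0.63 to 12.3 CPM in the 16 males (median 2.66), so the medians were close and the groups overlapped. With genotype as a covariate, its log2 fold change, female over male, was 1.06 (SE 0.50, interval 0.04 to 2.07, unadjusted p = 0.0413), and this did not pass adjustment over all genes (adjusted p = 0.489). Hbb-bs was thus 1 of 4 members with an unadjusted p under 0.05, against 9.77% of all genes tested, and 0 of 4 passed when adjusted, against 0.218%. Hba-a1 had 0.98 (SE 0.51, p = 0.0621), Hba-a2 0.92 (SE 0.49, p = 0.0678), Hbb-bt 0.97 (SE 0.48, p = 0.0539) and Alas2 0.72 (SE 0.37, p = 0.0591), all unadjusted.

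Without mouse 3 the Hbb-bs sex difference was 0.62 (unadjusted p = 0.199), and without mouse 29, the highest male, it was 1.36 (unadjusted p = 0.00964). Of the 30 fits that each left out 1 mouse, 16 had an unadjusted p under 0.05 for Hbb-bs. Without the 2 highest mice, 3 and 28, the log2 fold change was 0.19 (SE 0.45, unadjusted p = 0.671), and that of Hba-a2 was −0.078. Both mice are female, so leaving them out lowers the difference by construction.

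No interaction of sex and genotype was detected for the members. The interaction of sex and genotype had an unadjusted p between 0.602 (Hbb-bt) and 0.995 over the 5 genes, so 0 of the 4 tested members passed, against 2.57% of all genes tested (423 genes). No gene of the 16486 passed after adjustment in edgeR (0%), nor in DESeq2 (562 with an unadjusted p under 0.05) or with at least 10 counts in every mouse (368). These 2 alternatives covered other numbers of genes, so 562 and 368 are not shares of the 16486. For Hbb-bs the interaction was −0.02 on the log2 scale with an interval of −2.10 to 2.06, so the sexes could still differ within these bounds.

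The spread between mice set these errors. The biological coefficient of variation, edgeR's estimate of the spread between mice beyond counting error, was 97.0% for Hba-a1, 95.4% for Hbb-bs, 90.2% for Hba-a2 and 90.2% for Hbb-bt. They ranked 8, 9, 10 and 11 of the 16486 genes tested, where the median gene was at 6.97%. The 7 genes above them were Kdm5d, Uty, Eif2s3y and Ddx3y, which are Y-linked genes, Xist, the RNA of the inactive X chromosome, Gm29650, and Ttr, which encodes transthyretin and marks choroid plexus. Sex was not in this fit, so sex-linked genes vary in it by design. The study's methods name the date of isolation or harvest as a batch. The labels used here do not give these dates, so no fit holds them and their part in the spread was not tested.

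**Figure D3:**
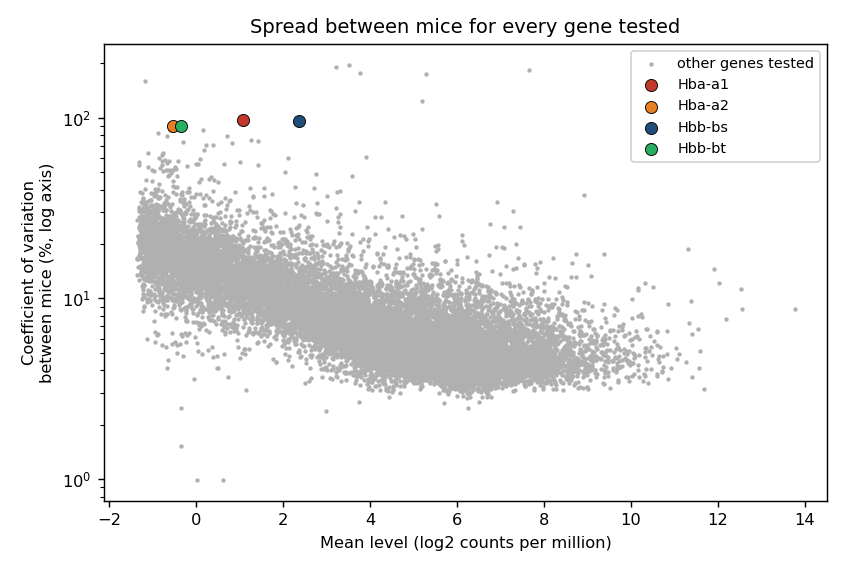
Every one of the 16486 genes tested is a point, with its mean level in log2 CPM on the x axis and its biological coefficient of variation between 30 mice, in percent on a log axis, on the y axis. The 4 globin genes, in colour, lie between 90.2% and 97.0%, above nearly all genes of their level.

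The 4 globin genes rose and fell together across mice. Over 30 mice, the log2 CPM of Hbb-bs correlated with Hba-a1 (Pearson r = 0.97, Spearman rho = 0.95), Hbb-bt (r = 0.92, rho = 0.87), Hba-a2 (r = 0.89, rho = 0.84) and Alas2 (r = 0.85, rho = 0.78). Each had a permutation p of 1e-05, the smallest that 100000 resamples can give, and an adjusted p of 4.75e-05 over the family of 19 relations. Without mice 3 and 28, the farthest from the median, r was 0.95, 0.88, 0.83 and 0.77 in the same order. Within the 13 KO mice r was 0.98, 0.89, 0.90 and 0.88, and within the 17 WT mice it was 0.97, 0.95, 0.90 and 0.88. How far reads shared by the copies of a pair enter these values was not tested, but Hba-a1 and Hbb-bs shared no window of 50 bases.

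**Figure D4:**
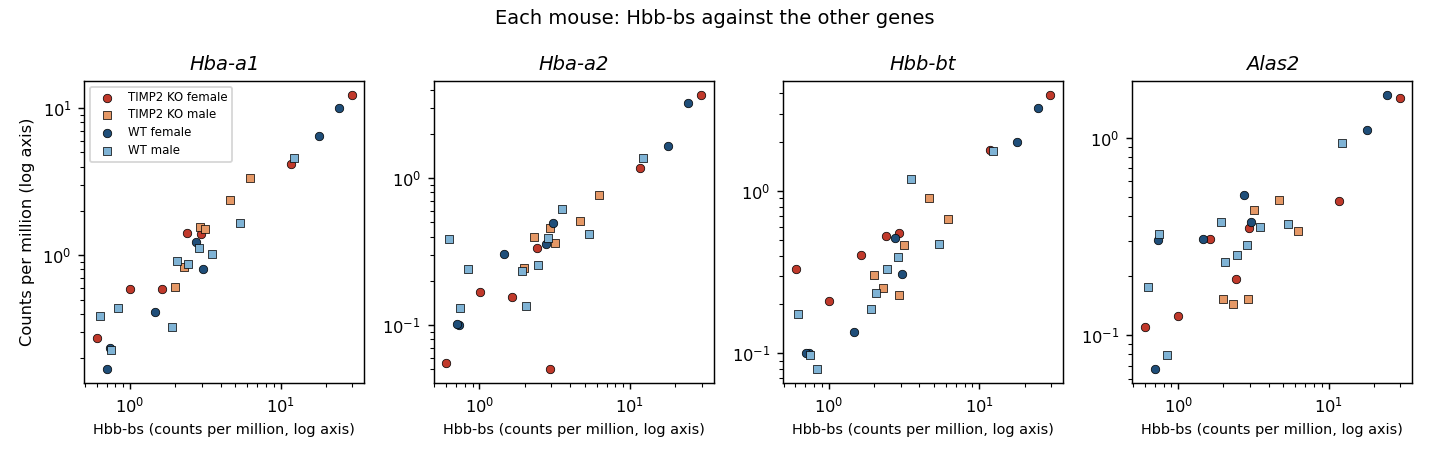
Each point is 1 of 30 mice, with Hbb-bs in CPM on the x axis and Hba-a1, Hba-a2, Hbb-bt or Alas2 in CPM on the y axis, all on log axes. The points lie close to a line for Hba-a1 (r = 0.97), and Alas2 rises less steeply than the globin genes.

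Each globin's share of the globin counts also varied between mice. Of all globin counts, Hbb-bs held 60.04%, Hba-a1 24.1%, Hbb-bt 8.48% and Hba-a2 7.34%. In the mouse with the most globin counts, mouse 3, Hbb-bs held 59.8% (95% Wilson interval 57.4 to 62.2%) and in the second, mouse 28, 59.7% (56.2 to 63.1%). Over all 30 mice Hbb-bs held 40% to 71.9%, Hba-a1 12.3 to 30.4%, Hbb-bt 4.41 to 26.1% and Hba-a2 1.01 to 24.4%. The lowest Hbb-bs share and the highest Hba-a2 share were in mouse 2 with 45 globin counts, and the highest Hbb-bt share in mouse 30 with 23. A chi-square of the 30 by 4 globin counts was 1.61 times its degrees of freedom, where 1 would be counting error alone.

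Alas2 rose less steeply with Hbb-bs than Hba-a1, Hbb-bt and Hba-a2 did. On log2 scales, its slope on Hbb-bs over 30 mice was 0.51, against 0.97 for Hba-a1, 0.79 for Hbb-bt and 0.73 for Hba-a2, as a description. Alas2 counts per 100 Hbb-bs counts had a median of 10.2. They were 5.35 in mouse 3, 6.75 in mouse 28 and 4.09 in mouse 8, among the highest mice, but 43.5 in mouse 7 and 40.9 in mouse 9, which had 37 and 35 globin counts. Mice 16 and 29, also among the highest, were at 6.11 and 7.65. Mice 5, 2 and 30, with 47, 45 and 23 globin counts, were at 12.5, 27.8 and 18.2. Mice 24 and 21, with 40 and 32 globin counts, were just below the median, both at 9.52. Mice with few globin counts thus lay mostly above the median, and the highest mice lay below it, as a description. Single counts move the ratio in mice with few globin counts. The prior count of 2 flattens the slope of genes with few counts, and reads from Apex2 were not separated.

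The ratios between the members were compared between genotypes in tests added after the values were seen. Hba-a1 made up 67.6 to 96.6% of the alpha pair in TIMP2 KO mice (median 79.2%, mean 79.5% ± 6.73, SD, n = 13) and up to 87.1% in WT mice (lowest 50%, median 70%, mean 69.3% ± 10.1, SD, n = 17). The groups overlapped, and the means differed by 10.2 percentage points (2-sided permutation p = 0.00406, adjusted over 4 ratios 0.0162). Among the mice with at least 50 globin counts the difference was 7.00 points (11 KO and 12 WT mice, permutation p = 0.0666, adjusted p = 0.133). In summed counts the shares were 78.5% in KO (95% Wilson interval 76.1 to 80.8%) and 74.6% in WT mice (71.8 to 77.2%, both intervals for counting error only and not the spread between mice), a smaller difference in sums that weight the mice with many counts. The handling of reads that match both copies, which is not given in the sources used here, enters all of these shares.

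The other ratios missed the threshold after adjustment. Hbb-bs made up 84.6% ± 6.98 (SD, n = 13) of the beta pair in KO and 87.6% ± 4.64 (SD, n = 17) in WT mice (permutation p = 0.17, adjusted p = 0.227). The alpha to beta ratio was 0.48 ± 0.10 in KO and 0.46 ± 0.17 in WT mice (SD, permutation p = 0.743). Among the mice with at least 50 globin counts it was 0.48 ± 0.09 (SD, n = 11) and 0.41 ± 0.06 (SD, n = 12), with a permutation p of 0.0424 and an adjusted p of 0.133. Leaving out 1 mouse at a time, the KO minus WT difference in this ratio ran from 0.0061 to 0.052. Alas2 counts per 100 Hbb-bs counts were 9.80 ± 4.94 in KO and 16.0 ± 11.5 in WT mice (SD, permutation p = 0.0807, adjusted p = 0.161).

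**Figure D5:**
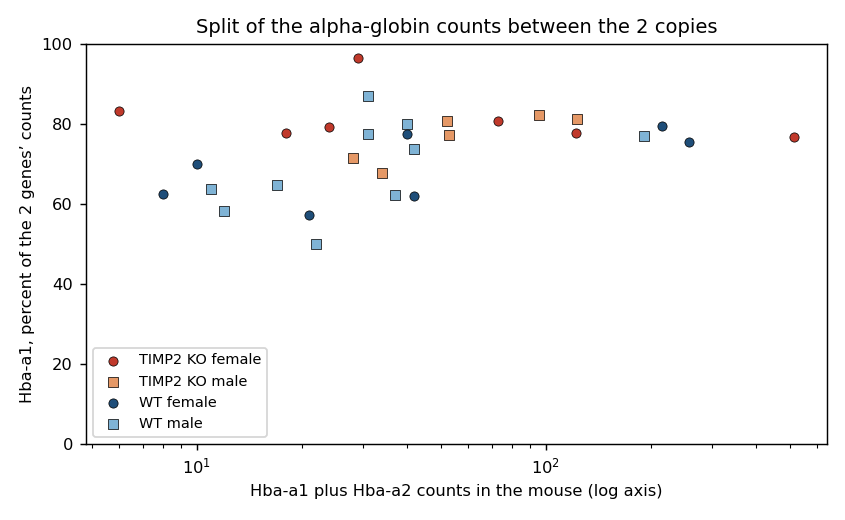
For each of 30 mice, the share of Hba-a1 in the counts of Hba-a1 plus Hba-a2, in percent, is plotted against the sum of both counts on a log axis. Mice with many counts lie close together near 80%, and the WT mice with shares near 50 to 65% mostly have few counts.

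Of the other globin genes, the embryonic ones were at or close to 0. The embryonic genes Hbb-bh1 and Hba-x had 0 counts in all 30 mice, as did Hbb-bh0, Hbb-bh2 and Hbb-bh3 of the beta cluster, and Hbb-y, another embryonic beta-globin, had 10 counts in all. Hbq1a and Hbq1b, the theta-globins next to the alpha cluster, had 202 and 170 counts in all, and neither passed the filter. Cytoglobin (Cygb, at 68.3 ± 4.67 CPM in KO and 69.5 ± 3.77 CPM in WT mice, SD, n = 13 and 17) and neuroglobin (Ngb, at 2.21 ± 0.71 and 2.15 ± 0.71 CPM), globins of other cells and of neurons, were the 2 genes of that list that were tested, and neither passed. The mean of this list had r = −0.19 with Hbb-bs (permutation p = 0.305, adjusted p = 0.614).

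The 6 defining markers of red cells were close to 0 while globins were counted. Slc4a1 (band 3 of the red cell membrane), Epb42, Hemgn, Rhag, Tspo2 and Trim10 summed to 1 to 10 counts per library in KO mice (0.031 to 0.30 CPM) and 0 to 6 in WT mice (0 to 0.23 CPM). Mice 3 and 28, with 1594 and 794 globin counts, had 2 and 3 of these. How many counts of these markers go with a given number of globin counts in blood was not tested. None of the 6 was at 0 in all mice, but Hemgn had 1 count and Rhag 2 in all. Ahsp was not analysed here. Other red cell membrane genes of the wider list had more counts, with 546 in all for Ermap, which passed the filter, 67 for Rhd and 35 for Kel. Of the factors that drive globin genes, Gata1 had 3 counts and Klf1 132 in all 30 libraries.

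Of the wider red blood cell list, 22 of 38 genes in the table were tested. At an unadjusted p under 0.05, 0 were higher and 2 lower in KO mice (9.09%, against 5.03% of all genes tested), and 0 passed adjustment. The list's median log2 fold change was −0.01, against 0.00 over all genes. The lower ones were Add2, a membrane skeleton adducin also abundant in neurons (−0.07, SE 0.03, p = 0.0429, and the most abundant gene of the list), and Tfrc, the transferrin receptor that takes up iron (−0.07, SE 0.03, p = 0.0472). Most tested genes of this list, such as Add2, are expressed in brain, and the list's mean had r = 0.13 with Hbb-bs (permutation p = 0.476, adjusted p = 0.663).

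The other heme synthesis genes were higher in level than Alas2 and varied little. All 13 genes of this list were tested, with a median log2 fold change of 0.01 between genotypes. At an unadjusted p under 0.05, 0 passed, against 5.03% of all genes tested. Alas1, the form of the enzyme used outside red cells, was at 50.9 ± 2.48 CPM in KO and 51.4 ± 2.68 CPM in WT mice, and Fech, which inserts iron into heme and was the most abundant, at 67.5 ± 2.44 and 67.3 ± 2.71 CPM (SD, n = 13 and 17). The list's mean had r = −0.20 with Hbb-bs (permutation p = 0.286, adjusted p = 0.614).

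Of the genes that clear heme and hemoglobin, 10 of 12 were tested, with a median log2 fold change of 0.02. At an unadjusted p under 0.05, 0 were lower and 1 was higher in KO mice (10%, against 5.03% of all genes tested). It was Ftl1, a ferritin light chain that stores iron (0.05, SE 0.02, p = 0.0323, adjusted p = 0.952). Cd163, the receptor for haptoglobin-bound hemoglobin on macrophages, was at 1.402 ± 0.233 CPM in KO and 1.23 ± 0.25 CPM in WT mice (unadjusted p = 0.0811), and Hmox1, the inducible heme oxygenase, at 5.27 ± 0.66 and 5.34 ± 0.62 CPM. Fth1, the ferritin heavy chain, was the most abundant, at 1835 ± 136 and 1808 ± 111 CPM (SD, n = 13 and 17). The list's mean had r = 0.06 with Hbb-bs (permutation p = 0.749, adjusted p = 0.846).

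The globin level was set beside markers of other blood cells, whose part in it was not tested. Defining platelet markers (Ppbp, Pf4, Itga2b and Gp9) summed to 1.44 to 2.74 CPM in KO and 1.36 to 2.73 CPM in WT mice, and the 2 group maxima were mice 3 and 28. Itga2b made up most of this sum, with 1191 counts in all, against 283 for Gp9, 258 for Pf4 and 19 for Ppbp. It held 61 of the 88 counts in mouse 3 and 33 of the 53 in mouse 28. Defining neutrophil markers (S100a8, S100a9, Ngp and Retnlg) summed to 0.038 to 2.90 CPM in KO and 0 to 0.50 CPM in WT mice, with 0.37 CPM in mouse 3 and 0.26 CPM in mouse 28. Those of B cells (Cd79a and Ms4a1) summed to 0.055 to 0.22 and 0 to 0.18 CPM, and those of T cells (Cd3e, Cd3d and Cd3g) to 0 to 0.11 and 0 to 0.16 CPM. No defining marker of these 4 cell types was at 0 in all 30 mice.

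None of these lists passed the correlation test with Hbb-bs after adjustment. Over 30 mice, r was 0.21 for platelet genes (permutation p = 0.276), 0.22 for neutrophil genes (p = 0.24), 0.03 for B cell genes (p = 0.863) and 0.12 for T and NK cell genes (p = 0.531). For platelet genes r was 0.59 within the 13 KO mice (permutation p = 0.0338, adjusted p = 0.128) and −0.035 within the 17 WT mice, and the difference was not tested. For circulating monocyte genes r was 0.35 (permutation p = 0.0539) and rho 0.41 (permutation p = 0.0268), with adjusted p-values of 0.205 and 0.102, and r was 0.43 without mice 3 and 28. Within the KO mice the monocyte rho was 0.63 (permutation p = 0.0242, adjusted p = 0.0919) and r was 0.40 (permutation p = 0.176). Within the WT mice rho was 0.30 (permutation p = 0.248) and r was 0.33 (permutation p = 0.194). Between genotypes, at an unadjusted p under 0.05, 1 of 7 tested platelet genes was lower in KO mice (14.3%, against 5.03% of all genes tested). It was Gp1bb, a platelet adhesion receptor subunit (−0.12, SE 0.05, p = 0.0182, the most abundant of the list). None of 2 neutrophil genes, 1 B cell gene, 2 T and NK cell genes and 4 monocyte genes passed. The most abundant of these were Csf3r (4.62 ± 0.68 CPM in KO, 4.25 ± 0.60 in WT), Ighm (14.4 ± 2.71 and 13.3 ± 2.65), Lck (1.45 ± 0.30 and 1.39 ± 0.19) and Fn1 (31.8 ± 4.62 and 32.6 ± 5.64, SD, n = 13 and 17). They lay far above defining markers such as S100a8 (median 0.065 CPM over 30 mice) and Cd79a (0.082 CPM). Whether genes of these lists were read from blood cells or from other cells of the tissue was not tested.

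Markers of endothelium, mural cells and meningeal fibroblasts had narrower ranges between mice than the globins. Endothelial defining markers (Cldn5, Pecam1, Cdh5 and Flt1) summed to 117 to 142 CPM in KO and 118 to 145 CPM in WT mice, with 136 CPM in mouse 3 and 134 CPM in mouse 28. Mural markers (Pdgfrb, Rgs5 and Kcnj8) summed to 121 to 150 and 107 to 147 CPM, with 150 and 130 CPM in mice 3 and 28. Meningeal fibroblast markers (Dcn, Lum, Col1a1 and Slc6a13) summed to 14.3 to 83.2 and 41.2 to 78.3 CPM. The means of these lists had r = 0.14, −0.16 and −0.19 with Hbb-bs (permutation p = 0.458, 0.403 and 0.323), and the neuron list had r = 0.13 (permutation p = 0.488). None of these markers was at 0 in all mice.

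Between genotypes, 1 of 18 endothelial genes was lower in KO mice at an unadjusted p under 0.05 (5.56%, against 5.03% of all genes tested). It was Slco1a4, a transporter of the blood-brain barrier (−0.10, SE 0.04, p = 0.0174), and none of 12 mural and 12 meningeal fibroblast genes passed. Of 10 neuron genes 1 (10%) was lower, Prox1, a factor of granule neurons (−0.16, SE 0.05, p = 0.005). The most abundant tested genes were Slc2a1 (69.8 ± 9.55 CPM in KO, 66.2 ± 8.00 in WT), Rgs5 (109 ± 8.61 and 105 ± 8.03), Dcn (46.9 ± 15.3 and 45.3 ± 11.9) and Snap25 (2469 ± 102 and 2424 ± 84.4, SD, n = 13 and 17).

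Choroid plexus genes were the list with the most calls between genotypes, and 1 KO mouse, mouse 11, carried much of their size. Ttr, Folr1, Kcnj13 and Clic6 summed to 2.14 to 655 CPM in KO and 0.54 to 38.6 CPM in WT mice, with medians of 6.68 and 5.63 CPM. Among the KO females, mouse 11 was at 655 CPM and the next at 129 CPM, also above the highest WT mouse. Of the 6 tested genes of the list, 5 were higher in KO mice at an unadjusted p under 0.05 (83.3%, against 5.03% of all genes tested). They were Ttr (log2 fold change 3.67, SE 0.73, adjusted p = 0.0326), Clic6 (1.52, SE 0.42), Prlr (0.52, SE 0.17), Sostdc1 (0.44, SE 0.14) and Enpp2 (0.43, SE 0.13), and only Ttr passed adjustment. The 5 calls come from the same mice and are not independent. The list was chosen with earlier results of these data known, so its share beside that of all genes is a description only. Mouse 11 held 26400 of 37143 Ttr counts. Without it, in fits added after the values were seen, the log2 fold change of Ttr was 2.14 (edgeR adjusted p = 0.547), that of Clic6 0.88 and that of Prlr 0.23, and 5 of 6 genes still had an unadjusted p under 0.05. Leaving out each mouse in turn, Ttr missed the adjusted threshold in 17 of 30 fits. In mouse 3 the 4 defining markers summed to 4.82 CPM and in mouse 28 to 2.93 CPM. The list's mean had r = −0.05 with Hbb-bs (permutation p = 0.79). The total count of the library had r = −0.05 with Hbb-bs (permutation p = 0.802).

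Among the 16482 other genes tested, none followed Hbb-bs as closely as the globins did. The most alike over 30 mice, by Pearson r of log2 CPM, were Rmc1 (0.62), Edem2 (0.59), Cd74 (0.56), Rin1 (0.55), Alox12 (0.54), Dbf4 (0.53), Armt1 (0.53), Lag3 (0.53), Mapk14 (0.53) and Rab9 (0.53), against a median r of 0.00. The least alike were Fdxr (−0.63), Jag2 (−0.58), Gm37305 (−0.58), Cps1 (−0.57) and Tmem161b (−0.56). These are descriptions of the extremes of many genes, with no test, and 0 genes had r above 0.7. Cd74, the invariant chain of antigen presentation, had r = 0.72 within WT mice and 0.27 within KO mice, and Rin1 fell to 0.35 without mice 3 and 28.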

How the data were processed

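Bulk RNA was measured in poly(A)-selected, paired-end libraries of hippocampi, 13 from TIMP2 KO and 17 from WT animals. The authors deposited raw counts per gene with no normalization; the submitters' processing notes name Trimmomatic 0.36, STAR 2.5.2b and featureCounts of Subread 1.5.2, with GRCm38. All 30 columns were matched to mice by title.

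From the counts, TMM factors, filterByExpr and quasi-likelihood tests were computed with edgeR 4.0.16 (R 4.3.3) over 16486 genes, with Benjamini-Hochberg adjustment, for genotype (no covariate), sex (genotype as covariate) and their interaction. A call is a p under 0.05. Log2 CPM used a prior count of 2. Correlations and ratio tests used 100000 permutations (scipy). The edgeR steps were tested on simulated data. Gene models were GENCODE M21 (49056 identifiers matched), and RPKM used the union of exons.

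The members and gene lists were chosen with earlier results of these data known. Some genes of the red blood cell and B cell lists are not reported here and were left out of the sums, means and counts over them. Named are the 5 members, Timp2, genes of the red cell, globin and heme lists and of the other lists with an unadjusted p under 0.05 for genotype, the most abundant tested gene of each other list, and the 10 most and 5 least like Hbb-bs. Other genes, named for their role or for being at 0, were chosen after their values were seen. Alternatives were DESeq2 1.42.0, RLE scaling, other filters, a sex term, each sex alone, limma 3.58.1 with sample weights, summed copies, library sizes without globins and leaving out each mouse. Depth limits low genes: a library with 1 count of Hba-a2 has no useful precision.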

Additional observations from a re-analysis of the deposited data

Results flagged for a closer look

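In each group of mice of the same sex and genotype, the gap between the highest or lowest mouse and the next was compared with the group's range by Dixon's criterion, for 17 measures in 4 groups each (68 groups, where chance gives about 3.4 flags). The 5 members and the alpha to beta ratio gave none. The 6 flags were in other measures. Among TIMP2 KO males, mouse 18 was lowest in Timp2 (log2 CPM 7.02, the next at 7.28), the highest summed red blood cell markers (0.302 CPM, the next at 0.108) and the highest summed neutrophil markers (2.90 CPM, the next at 0.536), and it ranked 7 of 30 in globin CPM (8.24). Among TIMP2 KO females, mouse 11 was highest in choroid plexus markers (655 CPM, the next at 129) and ranked 15 of 30 in globin, and among WT males mouse 26 was highest in them (38.6 CPM, the next at 13.7) and ranked 22. Mouse 6, a WT male, had the lowest neuron markers of its group (2386 CPM, the next at 2541).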

How the results depend on the processing

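No member passed adjustment over all genes under any of the alternatives, for genotype, sex or their interaction. The sign of the genotype difference did not hold. Leaving out 1 mouse at a time, the log2 fold change ranged from −0.47 to 0.59 for Hbb-bs, −0.15 to 0.90 for Hba-a1, −0.56 to 0.57 for Hba-a2, −0.20 to 0.72 for Hbb-bt and −0.67 to 0.023 for Alas2, lowest without mouse 3 and highest without mouse 28 each time. DESeq2 gave −0.53 for Hbb-bs and −0.29 for Hbb-bt, since it replaced the counts of mouse 3 as outlying. With no count replaced, a setting chosen after seeing the data, it gave 0.16 and 0.30. Males alone gave −0.054 for Hbb-bt. Without mice 3 and 28, also chosen after seeing the data, Hbb-bs was at −0.10 and Hba-a2 at −0.19 for genotype, and Hba-a2 at −0.078 for sex. For Alas2 the interaction by DESeq2 was −0.14, and the cause was not tested. The Hba-a1 share of the alpha pair was tested after the values were seen. Its KO minus WT difference ran from 8.75 to 11.3 percentage points leaving out 1 mouse at a time (adjusted permutation p at most 0.0398). Without mice 3 and 28 it was 10.8 points (adjusted permutation p = 0.018). It fell to 7.00 points and missed the threshold among mice with at least 50 globin counts. Of all genes, 1971 had an unadjusted p under 0.05 for genotype with no filter and 540 in males alone, against 829 in the main fit. After adjustment 2 passed in females alone and 3 in males alone, against 9, with fewer mice in each. The fit with no filter took all of the 49315 genes but the 15765 at 0 in every mouse, against 16486 in the main fit. Each sex alone had its own filter, so these totals are over unlike numbers of genes and are not shares. For sex, 79 passed in DESeq2, which also started from every gene with a count, against 36. The correlations of the 4 other members with Hbb-bs kept their sign and passed in each genotype and without the 2 farthest mice. Those of gene lists that missed the threshold changed sign in KO mice alone for other globins (0.089), mural (0.15) and B cell genes (−0.043), in WT mice alone for platelet (−0.035) and endothelial genes (−0.10), and without the 2 farthest mice for red blood cell (−0.028), T and NK cell (−0.025) and choroid plexus genes (0.052). That of the library total was 0.016 without those mice and 0.30 in KO mice. No paired analysis was possible because the numbers in the labels name single mice and link no pairs. Low counts limit Hba-a2, Hbb-bt and Alas2 most.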
